A study of Mus musculus with 66 samples.

Results

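The comparison described here asked which genes of the nucleus accumbens (NAcc) differed between cocaine and saline at the last time point of the daily cycle, in mice whose indirect-pathway neurons lack the dopamine D2 receptor. It used 3 cocaine and 3 saline libraries of iMSN-D2RKO mice harvested at ZT23, which is 20 h after the injection at ZT3 (ZT, zeitgeber time, counts hours from lights on). These 6 libraries are chosen by genotype, treatment and harvest time alone, and are 6 of the 66 distinct libraries of the series. Of 24138 genes listed, 13616 had an FPKM (fragments mapped to a gene, scaled by transcript length and library size) of at least 1 in at least 1 of the 6 and were tested. The study used males of 3 to 5 months on a background given as C57BL/6 in the labels and C57BL/6J in the methods, and the 6 libraries come from mice that carried the deletion and received 1 intraperitoneal injection of 20 mg/kg cocaine or of saline. The line carries D2R flox/flox with a Cre driven by the D1R promoter, which acts in indirect-pathway neurons because their embryonic precursors express both receptors. D2R of other cells, such as dopaminergic terminals and interneurons, is therefore not the intended target. For comparison, 6 WT libraries of ZT23 and 6 iMSN-D2RKO libraries of ZT19 with the same 2 treatments were used, each with 3 libraries per group.

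Medium spiny neurons (MSNs) make up most of the neurons of the NAcc, a ventral striatal region. Direct-pathway MSNs carry the D1 receptor, which raises cAMP, and indirect-pathway MSNs (iMSNs) carry the D2 receptor, which lowers it. Cocaine blocks the dopamine transporter and so raises dopamine at both receptors. In the hours after a dose, immediate early genes are induced in MSNs, while transcripts of the circadian clock follow their own daily cycle in this tissue.

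Markers of the tissue were abundant in all 6 libraries. Penk, the enkephalin precursor of iMSNs, had between 2137 and 3399 FPKM, Ppp1r1b, which encodes DARPP-32, between 662 and 1744, and Drd1 between 83.2 and 145. Ttr, the defining choroid plexus transcript, was at or under 0.0789 FPKM, and Hcrt of the lateral hypothalamus at or under 0.218. Other markers of choroid plexus and ependyma were present, with Rarres2 between 7.33 and 29.4 FPKM and Clic6 between 7.21 and 9.20. The 5 genes of that list that were tested summed to 53.3 FPKM in saline replicate 2 and to 18.99 to 39.6 in the others. Saline replicate 3 held more of the list of septal, hypothalamic and neighbouring tissue markers than the others, with a summed level of 78.8 FPKM over 9 genes against 18.95 to 38.5. Slc17a6, the vesicular glutamate transporter of subcortical neurons, had 8.51 FPKM in that library and between 0.864 and 1.27 in the others. In bulk tissue, fewer cells of a type and less RNA per cell cannot be told apart.

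Drd2 itself was not lower in iMSN-D2RKO libraries at the level of the whole gene. It had 112, 109.9 and 199 FPKM after saline and 299.7, 112 and 105 after cocaine in iMSN-D2RKO, and 193, 118 and 115 after saline and 107, 99.1 and 228 after cocaine in WT. A whole-gene FPKM also counts exons outside the deleted one and D2R of other cells, so it does not check the genotype. The highest Drd2 value of each of these 4 groups came from a library that stands apart from the rest.

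Saline replicate 3 and cocaine replicate 1 belong to 13 libraries that stand apart from the other 53 on the leading principal axis of within-group deviations (43.6% of their variance). Their scores on it were 63.8 and 66.9, against -25.0 to 7.95 for the other 4. The correlation of log2(FPKM + 1) was 0.971 between these 2 libraries of opposite treatment, and between 0.859 and 0.878 for cocaine replicate 1 against the other cocaine libraries. Saline replicate 2 had the lowest score of the series and the highest total FPKM of the 6, 465297 against 387699 at the lowest. Since the cocaine group and the saline group each hold 1 set-apart library, several results are also given for that pair and for the other 4 libraries. Results given without this split may rest on that pair too. A relative depth estimated from rarely detected genes ran from 0.635 to 1.19, and both set-apart libraries were at the low end. The read numbers are not known, so precision was taken from the replicates.

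**Figure D1:**
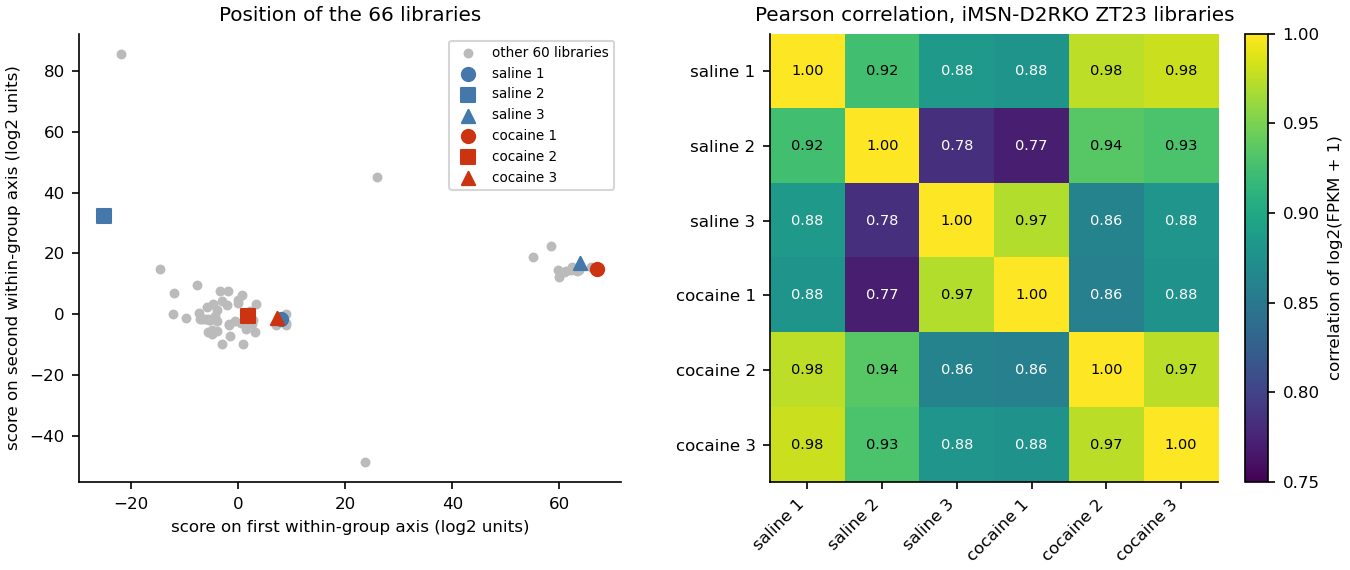
Left, scores of the 66 libraries on the leading and the second axis of within-group deviations (log2 units), with the iMSN-D2RKO ZT23 saline (blue) and cocaine (red) libraries marked by replicate and the other 60 in grey. Right, Pearson correlation of log2(FPKM + 1) between the 6 libraries. Saline 3 and cocaine 1 sit together at scores of 63.8 and 66.9 and correlate at 0.97 with each other, while saline 2 lies at the opposite end at -25.0.

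No gene differed between cocaine and saline at ZT23 in iMSN-D2RKO mice beyond the spread between replicates once all genes were taken into account. In limma with Benjamini-Hochberg adjustment, 0 of 13616 genes had an adjusted p under 0.05, and the smallest adjusted p was 0.993. At an unadjusted p under 0.05 there were 234 genes, or 1.72% of those tested, with 108 (0.793%) higher and 126 (0.925%) lower after cocaine. The 3 cocaine values lay all above the 3 saline values in 242 genes (1.78%) and all below them in 300 genes (2.2%). The differences were small, with a median absolute log2 difference of 0.14, and 33 genes (0.242%) differed by 1 log2 unit or more.

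The size of difference that these data leave possible can be read from the intervals. The median standard error was 0.22 and a 95% interval reached a median of 0.44 log2 units to either side. For 12146 genes, 89.2% of those tested, the whole interval lay within 1 log2 unit on either side of 0, and for 4839 genes (35.5%) within 0.5 units. These units are of log2(FPKM + 1), which understates the fold change of low genes. The intervals of low genes therefore leave larger fold changes possible than the units say. A mean of at least 5 FPKM over the 6 libraries was reached by 9596 of the genes tested. With the library score as a covariate, the median standard error was 0.15, 639 genes (4.69%) had an unadjusted p under 0.05, and 0 had an adjusted p under 0.05. The score was derived from the within-group deviations of these same values, so its use lowers the standard error in part by construction. A permutation of 3 against 3 samples cannot give a p under 0.1, so single genes were not tested that way. The p-values and standard errors rest on the spread between replicates within the 22 groups of all 66 libraries. They do not measure the spread of the compared libraries alone. With only the compared libraries in the fit, 54 genes had an unadjusted p under 0.05, against 234 in the main fit.

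**Figure D2:**
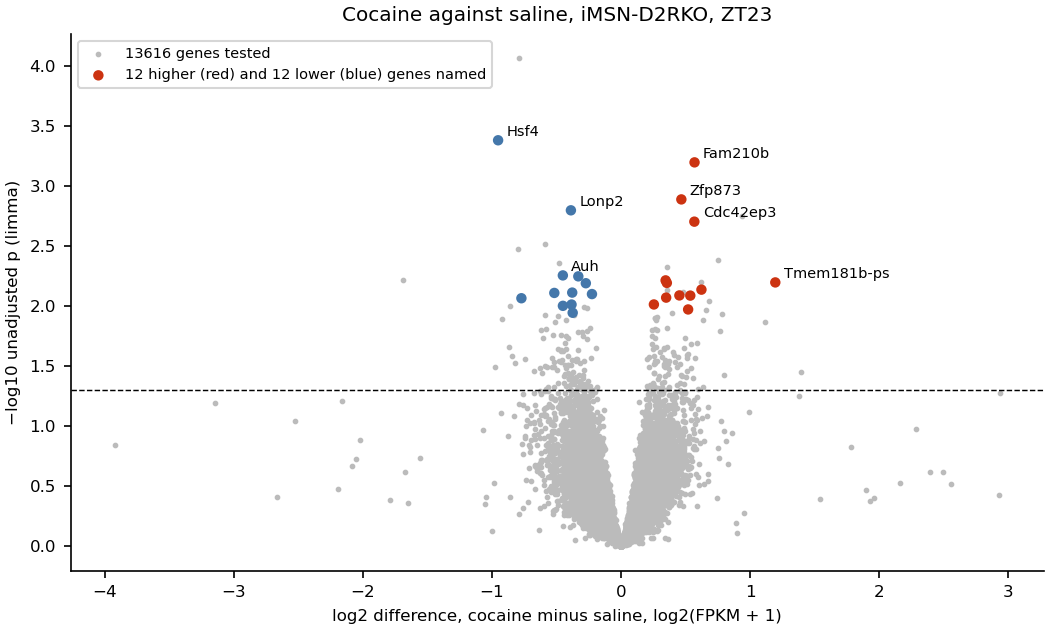
Each point is 1 of the 13616 genes, with the log2 difference (cocaine minus saline) on the x axis and the -log10 of the unadjusted limma p on the y axis. The dashed line marks an unadjusted p of 0.05, which 234 genes pass, red and blue points are the 12 higher and 12 lower genes with the smallest p among genes whose groups do not overlap, and no gene passes after adjustment.

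The genes described next are those with the smallest p among genes of at least 1 FPKM on average whose groups do not overlap, 12 in each direction. All have an adjusted p of 0.993 and are values rather than calls. The plot of these genes by library shows the spread behind each of them.

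**Figure D3:**
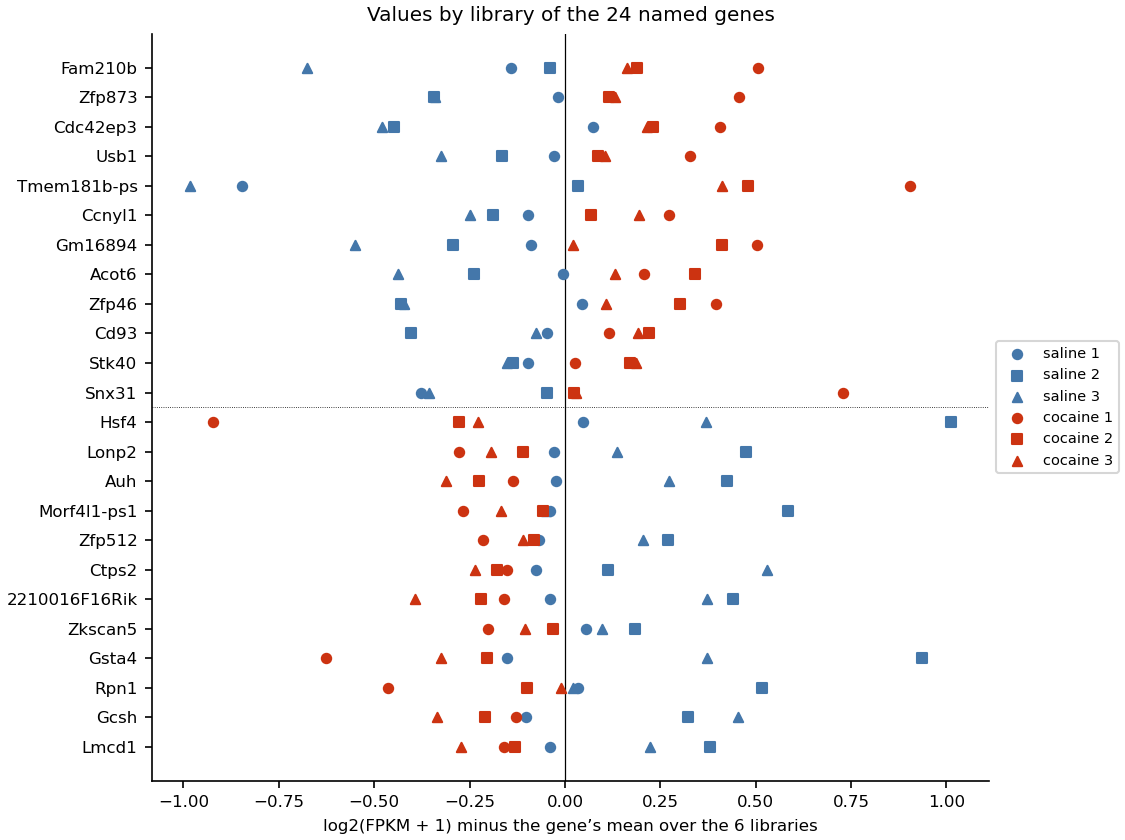
Values of 24 genes in the 6 libraries, as log2(FPKM + 1) minus the mean of the gene over the 6, with saline in blue, cocaine in red and a symbol for each replicate. By the choice of genes no red point overlaps the blue points. Cocaine 1 is the farthest red point for Fam210b, Tmem181b-ps, Snx31, Hsf4 and Gsta4, and saline 2 the farthest blue point for Hsf4 and Gsta4.

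Among the higher values, Fam210b, a mitochondrial protein gene at chr2:172345565-172355749, had 9.82, 10.6 and 6.46 FPKM after saline and 15.9, 12.6 and 12.3 after cocaine. Its log2 difference was 0.57 ± 0.16 (SE, n = 3 per group, adjusted p = 0.993 in limma). The difference was 1.18 in the set-apart pair and 0.26 in the other 4 libraries, so the set-apart pair carried more of it.

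Cdc42ep3, which encodes an effector of the small GTPase CDC42 in actin organization, had 21.7, 14.8 and 14.5 FPKM after saline and 27.7, 24.3 and 24.1 after cocaine. The difference of 0.57 ± 0.17 was 0.89 in the set-apart pair and 0.41 in the others. Zfp873, a zinc-finger gene, had 2.83, 2.06 and 2.07 FPKM after saline and 4.32, 3.20 and 3.25 after cocaine, a difference of 0.47 ± 0.14. It was 0.80 in the set-apart pair and 0.30 in the others. The saline libraries of both genes stayed below every cocaine library.

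Tmem181b-ps, a transcribed pseudogene on chromosome 17, had the largest difference of the 24, with 21.2, 39.97 and 19.2 FPKM after saline and 73.9, 54.7 and 52.2 after cocaine (1.20 ± 0.42). The difference was 1.89 in the set-apart pair and 0.85 in the other 4 libraries. Reads of a pseudogene can be shared with its parent family, which makes its level uncertain. Stk40, a kinase-like gene, had 11.2, 10.8 and 10.7 FPKM after saline and 12.2, 13.6 and 13.8 after cocaine (0.26 ± 0.095). It also had similar differences in WT at ZT23 (0.30) and in iMSN-D2RKO at ZT19 (0.23). The other 7, Usb1, Ccnyl1, Gm16894, Acot6, Zfp46, Cd93 and Snx31, had differences between 0.35 and 0.62. These were larger in the set-apart pair than in the other libraries, as in Snx31 (1.085 against 0.24), except for Cd93 (0.19 against 0.43).

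Among the lower values, Hsf4, a member of the heat shock factor family at chr8:105269801-105275845, had 6.98, 14.6 and 8.99 FPKM after saline and 3.08, 5.38 and 5.604 after cocaine. Its log2 difference was -0.95 ± 0.25 (n = 3 per group, adjusted p = 0.993 in limma), and was -1.29 in the set-apart pair and -0.78 in the other 4. Leaving out each library in turn moved it between -1.17 and -0.68. With the library score as covariate it was -0.88 (adjusted p = 0.803 in limma).

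Lonp2 encodes a protease of peroxisomes and Auh a mitochondrial enzyme of leucine breakdown. Lonp2 had 32.1, 45.9 and 36.1 FPKM after saline and 26.8, 30.3 and 28.5 after cocaine (-0.39 ± 0.12). Auh had 36.6, 50.3 and 45.1 after saline and 33.7, 31.7 and 29.8 after cocaine (-0.45 ± 0.15). In both, the set-apart pair and the other libraries gave nearly the same difference, -0.41 and -0.37 for Lonp2 and -0.41 and -0.47 for Auh.

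Gsta4, a glutathione transferase that clears products of lipid oxidation, had 22.2, 48.2 and 32.3 FPKM after saline and 15.7, 21.3 and 19.5 after cocaine (-0.77 ± 0.28). Rpn1, a subunit of the oligosaccharyltransferase of the endoplasmic reticulum (ER), had 40.3, 56.7 and 39.9 after saline and 28.2, 36.6 and 39.0 after cocaine (-0.38 ± 0.14). Saline replicate 2 was the highest library in both genes. Gcsh, of the mitochondrial glycine cleavage system, differed by -0.45 ± 0.17, and the other 6 (Morf4l1-ps1, Zfp512, Ctps2, 2210016F16Rik, Zkscan5 and Lmcd1) by -0.52 to -0.22.

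The smallest p of all belonged to an entry outside these 24, chosen for mention after its values were seen. An entry named Rnaset2b had 0.667, 1.63 and 1.58 FPKM after saline and 0.349, 0.368 and 0.184 after cocaine (-0.79 ± 0.18, adjusted p = 0.993 in limma). The symbol is listed at 2 places, and the counting could split reads between near-identical copies, so the level is uncertain.

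Genes of protein folding lay mostly on the lower side after cocaine. Cytosolic chaperones, which fold new and damaged proteins in the cytosol and mitochondria, had a negative difference in 27 of 29 genes with a median of -0.21, and genes of ER folding and ER stress in 17 of 21 with a median of -0.19. Over all genes tested, 6761 of 13616 were negative and the median was 0.002. None of the 50 genes passed adjustment, and 3 chaperones and 2 ER genes had an unadjusted p under 0.05, all lower, beside 0.925% of all genes on that side.

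Pdia6, an ER disulfide isomerase, had 58.7, 78.5 and 62.8 FPKM after saline and 46.9, 47.0 and 53.4 after cocaine (-0.43 ± 0.17, adjusted p = 0.993 in limma). Pdia3, another disulfide isomerase, had 79.3, 108 and 100.3 after saline and 77.6, 64.6 and 72.0 after cocaine (-0.41 ± 0.17). Hspa5, the chaperone BiP of the ER lumen, had 147, 176 and 161 after saline and 114, 104 and 153 after cocaine (-0.39 ± 0.21). The cocaine libraries were below every saline library for both isomerases and overlapped them for Hspa5.

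Of the chaperones, Ahsa2, related to the HSP90 activator AHSA1, had 6.60, 10.7 and 8.38 FPKM after saline and 4.67, 6.30 and 6.26 after cocaine (-0.49 ± 0.19). Fkbp4, an HSP90 cochaperone, had 58.9, 90.0 and 62.4 after saline and 45.2, 53.2 and 59.3 after cocaine (-0.40 ± 0.19), and the groups overlapped. Tcp1 and Cct5, subunits of the cytosolic chaperonin, differed by -0.32 ± 0.15 and -0.36 ± 0.18 with groups that did not overlap. Hspa8, the constitutive HSC70, was the exception with the largest positive value, 0.45 ± 0.52, and its saline replicate 1 was at 73.2 FPKM against 198 to 341 in the other 5.

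These lists had similar medians in both parts of the data. Chaperones had -0.25 in the set-apart pair and -0.21 in the other 4 libraries, and ER genes -0.29 and -0.32. Without saline replicate 2, the highest library for many of these genes, the medians were -0.18 (22 of 29 negative) and -0.17 (18 of 21 negative). In each list the groups did not overlap in 4 genes, all lower, beside 2.2% of all genes.

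In WT mice at ZT23 the same lists lay on the other side. The median difference was 0.15 for chaperones, with 27 of 29 positive, and 0.11 for ER genes, with 15 of 21 positive. Of the difference between the genotypes' effects, 0 of 13810 genes passed adjustment and 231 (1.67%) had an unadjusted p under 0.05, among them 4 of the 29 chaperones and 4 of the 21 ER genes, all with the lower effect in iMSN-D2RKO, beside 0.71% of all genes on that side. The genotypes' effects on these genes are therefore not shown to differ. Opposite majorities were not particular to protein folding. Dopamine and cAMP genes were positive in 18 of 20 in iMSN-D2RKO and 3 of 20 in WT. Sodium and calcium channels were positive in 19 of 22 and 3 of 22, and ribosomal proteins in 7 of 45 and 37 of 44. Immediate early genes were positive in 20 of 25 in both genotypes. Each WT group also holds a set-apart library, and the WT medians were not split by it.

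**Figure D4:**
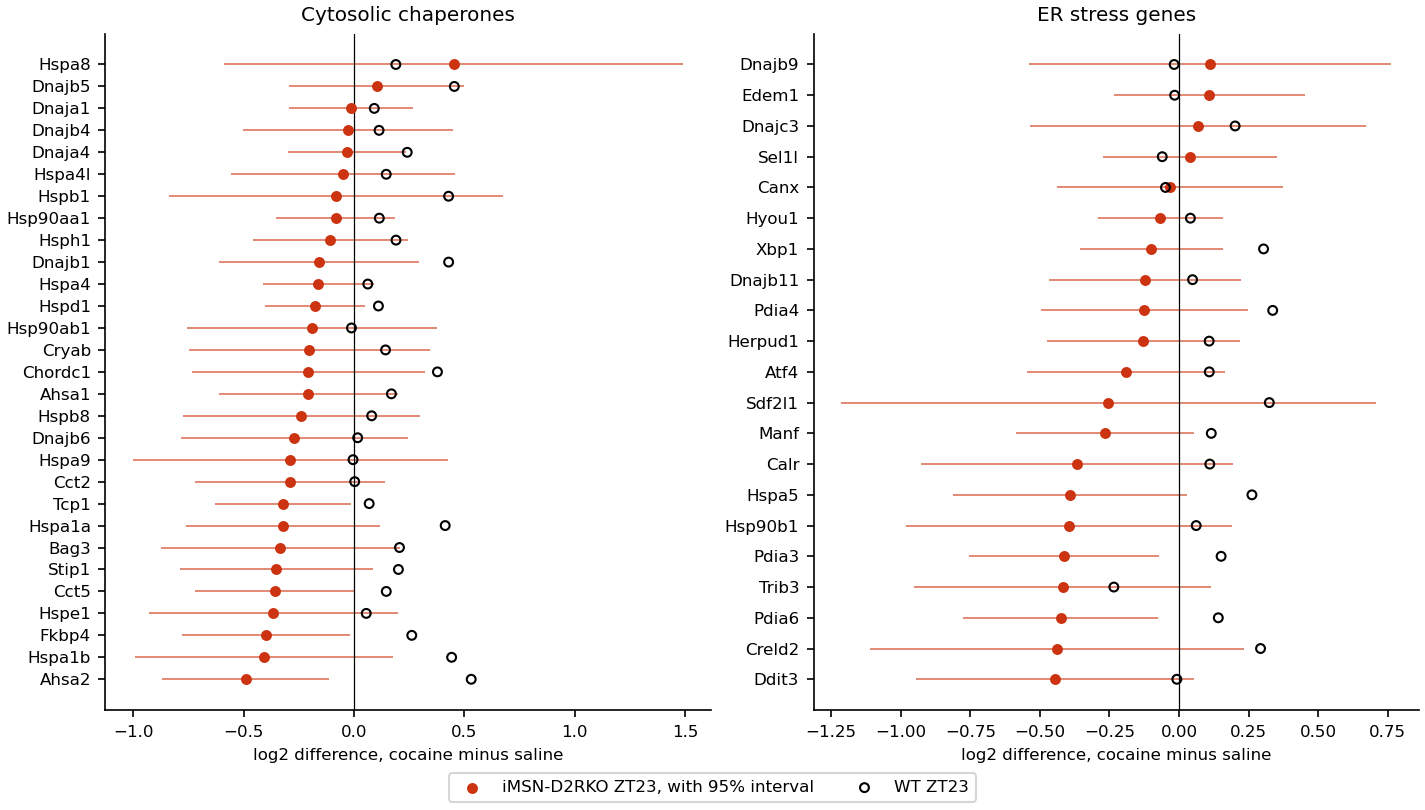
Log2 difference (cocaine minus saline) at ZT23 for 29 cytosolic chaperones and 21 ER stress genes. Filled red points are iMSN-D2RKO with the 95% interval of the limma fit, and open points are WT. Most red points lie left of 0 and most open points right of it, with medians of -0.21 and 0.15 for chaperones and -0.19 and 0.11 for ER genes.

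Promoters of ER folding genes carry the ER stress response element (ERSE), a CCAAT box followed after 9 bases by CCACG, through which ATF6 and XBP1 act. RefSeq promoter windows on GRCm38.p6, from 250 bases before to 50 after each start, were at hand for 19 of the 21 ER genes, and 7 of these (36.8%) held the element on either strand, against 0.163% of the 10416 tested genes with a window. The stretches below are shown because they mark which of the ER genes hold it, written 5′ to 3′ on the strand of the gene with the element in capitals, which on the opposite strand reads CGTGG to ATTGG.
Pdia6: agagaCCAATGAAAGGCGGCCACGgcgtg
Hspa5: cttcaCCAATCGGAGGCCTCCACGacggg
Hsp90b1: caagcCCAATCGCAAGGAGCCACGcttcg
Calr: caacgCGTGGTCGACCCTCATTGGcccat
Creld2: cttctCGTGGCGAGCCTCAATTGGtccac
Canx: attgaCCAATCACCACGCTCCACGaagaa
Dnajc3: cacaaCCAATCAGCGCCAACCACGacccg
The stretch of Pdia6 is at chr12:17266486-17266514 on the plus strand and that of Hspa5 at chr2:34772020-34772048 on the plus strand. The element begins 98 bases before the start in Pdia6 and 65 bases before it in Hspa5. The 7 genes did not share a value. Their log2 differences were -0.43 for Pdia6, -0.39 for Hspa5, -0.40 for Hsp90b1, -0.37 for Calr and -0.44 for Creld2, but -0.03 for Canx and 0.07 for Dnajc3. A match describes the letters of the window and does not show that a factor bound there.

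For the chaperones, the heat shock element was searched by name on both strands, as 3 alternating units of GAA, TTC and GAA spaced by 2 bases. It was in 5 of 24 genes with a window (20.8%), against 0.595% of tested genes. Hspd1 and Hspe1, which encode the mitochondrial HSP60 and HSP10, are transcribed in opposite directions from 1 shared window, and the stretch is shown because the pair shares it.
Hspd1: gccttccgGAAGGTTCTAGAAcggaccgt
It lies at chr1:55088051-55088079 and is printed on the minus strand, that of Hspd1. Hspd1 had 38.1, 41.2 and 41.4 FPKM after saline and 37.2, 33.8 and 35.6 after cocaine (-0.18 ± 0.11), and Hspe1 differed by -0.36 ± 0.28. The groups did not overlap for Hspd1 and overlapped for Hspe1, where saline replicate 1, at 45.3 FPKM, lay among the cocaine values of 42.0 to 57.4.

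The other lists of abundant housekeeping transcripts considered, 3 in number, were also mostly negative, and here the medians followed single libraries. Ribosomal proteins, of which 45 were tested, had 38 negative and a median of -0.26. Oxidative phosphorylation genes had 48 of 57 negative with a median of -0.23, and proteasome subunits 28 of 31 with -0.21. Saline replicate 2 had the highest summed level of ribosomal genes, 11510 FPKM against 4111 to 7510 in the other saline and 3784 to 6815 in the cocaine libraries. Without it the medians were 0.06, 0.10 and -0.03, with 16 of 43 ribosomal, 15 of 57 oxidative phosphorylation and 17 of 31 proteasome genes negative, so that the sign of the first and second median turned. Leaving out each of the 6 libraries in turn moved the medians from -0.69 to 0.08, from -0.57 to 0.10 and from -0.35 to -0.03, in that order. Counts of ribosomal genes can also be shared with their many pseudogenes. The same library had the most of the red blood cell list, 336 FPKM against 76.6 to 137 in the others, and its part in these results was not tested.

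Genes of dopamine and cAMP signalling in MSNs leaned the other way, with 18 of 20 positive and a median of 0.22, and none of them had an unadjusted p under 0.05. Gnal, the stimulatory G protein alpha subunit of the striatum, had 198, 114 and 167 FPKM after saline and 217, 190.2 and 189 after cocaine (0.34 ± 0.20). Pde10a, the cAMP and cGMP phosphodiesterase of MSNs, had 221, 93.8 and 161 after saline and 258, 204 and 205 after cocaine (0.56 ± 0.36). Drd1, the D1 receptor, had 145, 107 and 83.2 after saline and 124, 132 and 141 after cocaine (0.28 ± 0.21). All 3 overlapped between groups, and the list's median was 0.56 in the set-apart pair but 0.04 in the other 4 libraries.

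MSN marker genes had 11 of 14 positive with a median of 0.17, which was also 0.55 in the set-apart pair and 0.02 in the other libraries. Direct-pathway genes had a median of 0.12 and indirect-pathway genes of 0.06. Adora2a, the adenosine receptor of iMSNs, had 186, 188 and 70.7 FPKM after saline and 103, 181 and 176 after cocaine (0.13 ± 0.36). In both groups the set-apart library was the lowest for Adora2a.

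Ion channels held 1 of the larger single values. Kcnj2, an inward rectifier that sets the resting potential of MSNs, had 12.5, 6.26 and 8.89 FPKM after saline and 19.6, 13.8 and 12.2 after cocaine (0.68 ± 0.25, adjusted p = 0.993 in limma). Saline replicate 1 lay above the lowest cocaine library, so the groups overlapped. The difference of Kcnj2 was 1.06 in the set-apart pair and 0.49 in the other libraries. Kcnab1, a potassium channel beta subunit, had 127, 88.4 and 106 after saline and 156, 134 and 129 after cocaine (0.39 ± 0.20) without overlap. Sodium and calcium channels were positive in 19 of 22 genes with a median of 0.21, which was 0.08 without saline replicate 2. Potassium channels were positive in 20 of 33, with a median of 0.12 and values from -0.61 to 0.80. Kcnj2 was the 1 of these 33 with an unadjusted p under 0.05, beside 1.72% of all genes. The groups did not overlap in 1 of the 33 on the higher side, Kcnab1, and in 1 on the lower side. Over all genes these shares were 1.78% and 2.2%.

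Of the 8 opioid genes tested, 4 were positive and 4 negative, with a median of 0.03. Oprk1, the kappa receptor for dynorphin, had 10.4, 7.26 and 10.6 FPKM after saline and 17.9, 12.3 and 11.45 after cocaine (0.51 ± 0.23, adjusted p = 0.993 in limma). It was the 1 gene of the list with an unadjusted p under 0.05, beside 1.72% of all genes. It was also the 1 gene of the list whose groups did not overlap, beside 1.78% of all genes on the higher side. Its difference was 0.71 in the set-apart pair and 0.41 in the other libraries. In WT at ZT23 it was -0.28. In iMSN-D2RKO at ZT19, where saline replicates 1 and 3 are set apart, it was -0.48. Accumbens neuropeptides were negative in 11 of 12 genes with a median of -0.28. That value followed single libraries, and was -0.09 without saline replicate 2 and -0.09 without the set-apart libraries. Crh had 13.9 FPKM and Tac2 61.7 in saline replicate 3, the library with the high septal and hypothalamic markers, against 3.33 to 5.26 and 7.99 to 27.8 in the others. Calb2, the calretinin gene of interneurons, was also highest there, at 41.9 against 5.38 to 16.6. The part of neighbouring tissue in these values was not tested.

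Clock genes were measured near the end of the dark phase. In the molecular clock, CLOCK or NPAS2 with BMAL1 (Arntl) drive the Per, Cry and Nr1d genes through E-boxes, and the protein products repress that drive. All 21 listed clock genes were tested, and 16 were positive with a median of 0.10. None passed adjustment, 1 of 21 had an unadjusted p under 0.05, beside 1.72% of all genes, and the groups did not overlap in 2, both higher, beside 1.78% of all genes.

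Ciart (CHRONO), a repressor of CLOCK and BMAL1, was that gene. It had 4.58, 3.92 and 4.22 FPKM after saline and 8.01, 6.62 and 6.13 after cocaine (0.59 ± 0.25, adjusted p = 0.993 in limma). The difference was 0.79 in the set-apart pair and 0.49 in the others. In WT at ZT23 Ciart had 5.75, 5.74 and 13.5 after saline and 7.67, 5.03 and 5.72 after cocaine, a difference of -0.30, and the genotypes' effects differed by 0.89 ± 0.35 (adjusted p = 0.9995 in limma). An antisense gene, C920021L13Rik, overlaps Ciart, and whether the counting used the strand is not given in the sources used here. Per3 was the other gene without overlap, at 7.80, 7.90 and 7.41 after saline and 8.98, 8.89 and 8.11 after cocaine (0.15 ± 0.17).

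Per1, which also responds to cAMP and glucocorticoids, had 25.8, 22.5 and 18.3 FPKM after saline and 23.9, 28.8 and 35.2 after cocaine (0.38 ± 0.21), with overlap. Its difference was similar in WT at ZT23 (0.36) and in iMSN-D2RKO at ZT19 (0.52). Arntl had 18.5, 13.1 and 20.1 after saline and 21.1, 13.2 and 14.97 after cocaine (-0.07 ± 0.22). Nr1d1, which encodes REV-ERBα, differed by 0.10 ± 0.18, Dbp, a clock output factor, by 0.06 ± 0.34, and Cry1 and Cry2 by 0.09 ± 0.15 and 0.03 ± 0.17. Clock, Npas2, Nr1d2 and Bhlhe41 had their highest saline and their highest cocaine value in the set-apart libraries.

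The E-box CACGTG was found in the promoter windows of 5 of the 18 clock genes with a window (27.8%), against 11.7% of tested genes with one. Ciart holds 3 of them before its start, which is why its stretches are shown, beside those of Per1 and Cry1, with the E-box in capitals on the strand of the gene.
Ciart: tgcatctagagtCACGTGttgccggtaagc
Ciart: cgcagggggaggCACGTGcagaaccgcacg
Ciart: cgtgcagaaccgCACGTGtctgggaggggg
Per1: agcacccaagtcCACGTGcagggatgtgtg
Cry1: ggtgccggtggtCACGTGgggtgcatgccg
The Ciart E-boxes begin 116, 58 and 44 bases before its start on the minus strand, and the first stretch lies at chr3:95882327-95882356. The E-boxes of Per1 and Cry1 begin 166 and 60 bases before theirs. The cAMP response element TGACGTCA was in the window of 1 clock gene, and the D-box TTACGTAA and the PPAR response element in none of them.

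**Figure D5:**
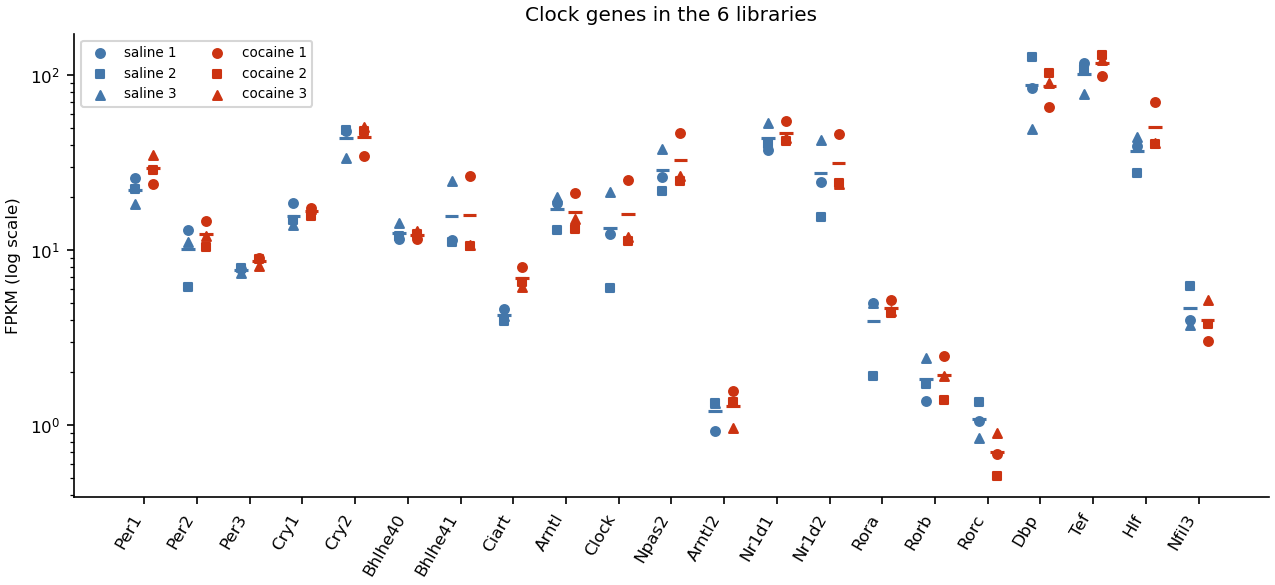
FPKM (log axis) of the 21 clock genes in the 6 libraries, with saline in blue, cocaine in red, a symbol for each replicate and a bar for the mean of each group. Ciart is the gene with the clearest separation, from 3.92 to 4.58 after saline and from 6.13 to 8.01 after cocaine, and Clock, Npas2, Nr1d2 and Bhlhe41 are high in saline 3 and cocaine 1.

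Immediate early genes, the rapid transcriptional response of neurons to activity, were positive in 20 of 25 genes with a median of 0.08, and none had an unadjusted p under 0.05. That median followed single libraries, from -0.09 to 0.30 on leaving out each in turn, and was 0.30 with 3 of 25 negative without saline replicate 2. Nr4a1, an orphan nuclear receptor, had 41.2, 59.2 and 32.9 FPKM after saline and 62.0, 50.04 and 73.5 after cocaine (0.49 ± 0.30). Fos had 4.01, 5.23 and 2.55 after saline and 2.89, 4.25 and 9.57 after cocaine (0.32 ± 0.51). Cocaine replicate 3 was highest for both, and the groups overlapped in all 25. In WT at ZT23 the median of the list was 0.39, also with 20 of 25 positive, and Arc, whose mRNA travels to active synapses, was at 1.63 in WT and 0.37 in iMSN-D2RKO. Of these 25 genes, 1 had an unadjusted p under 0.05 for the difference between genotypes, beside 1.67% of all genes, and none passed adjustment. Nr4a1 differed by 1.31 in WT at ZT23 and by 1.12 in iMSN-D2RKO at ZT19. At ZT19, where saline replicates 1 and 3 are set apart, 24 of 25 were positive with a median of 0.85. For the difference between ZT23 and ZT19, 5 of 25 had an unadjusted p under 0.05, beside 7.27% of all genes, and none passed adjustment.

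Genes of the PPAR pathway showed no separation. Pparg, the nuclear receptor of interest to the study, had between 0.0533 and 0.575 FPKM in the 6 libraries and was too low to be tested. Its named targets Gabrd, a GABA-A receptor subunit, Kcnd1, a potassium channel, and Adora2a differed by 0.07 ± 0.32, 0.22 ± 0.15 and 0.13 ± 0.36. These 3 genes were chosen by the study on these samples, so they are not independent evidence. The list of PPAR, RXR and PGC-1 genes had 9 of 17 positive and a median of 0.02.

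Single genes of other lists had an unadjusted p under 0.05, beside 1.72% of all genes. Among them were Rpl6 (-0.52 ± 0.23), 1 of 45 ribosomal genes, and Sdha (-0.19 ± 0.092), 1 of 57 oxidative phosphorylation genes. The others were 1 of 8 vessel wall, 1 of 24 apoptosis and 1 of 12 interneuron genes. Acta2, smooth muscle actin of vessel walls, had 5.03, 6.16 and 5.98 FPKM after saline and 3.95, 3.61 and 4.02 after cocaine (-0.46 ± 0.20). Casp8, the initiator caspase of death receptors, had 0.858, 0.824 and 0.760 after saline and 1.12, 1.19 and 1.10 after cocaine (0.24 ± 0.095). Lhx6, a transcription factor of interneurons, had 13.3, 9.83 and 17.5 after saline and 10.5, 9.57 and 9.06 after cocaine (-0.41 ± 0.19). The groups did not overlap for Acta2 and Casp8 and overlapped for Lhx6, beside 1.78% of all genes without overlap on the higher and 2.2% on the lower side. Casp8 averaged 0.98 FPKM, near the filter. Lhx6 was highest in saline replicate 3, and its difference was -0.69 in the set-apart pair and -0.27 in the other libraries.

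Summed levels of the markers of other cell types overlapped between the groups. The sum of 16 myelin genes ran from 2397 to 3547 FPKM after saline and from 2567 to 3986 after cocaine, that of 12 astrocyte genes from 711 to 934 and from 793 to 855, that of 12 microglia genes from 301 to 506 and from 348 to 436, and that of 12 endothelial genes from 178 to 194 and from 172 to 199. List medians were 0.09, -0.01, -0.02 and 0.11 in that order. Single astrocyte markers did not overlap between the groups. The glutamate transporter gene Slc1a2 was higher, with 214, 127 and 191 FPKM after saline and 226, 215 and 248 after cocaine. S100b had 63.4, 87.2 and 58.8 FPKM after saline and 44.5, 55.7 and 48.0 after cocaine, and the connexin gene Gjb6 had 12.8, 12.7 and 15.7 after saline and 8.66, 8.45 and 10.8 after cocaine. These 3 of 12 astrocyte genes, named after their values were seen, each had an unadjusted p above 0.05, and none of the myelin, microglia and endothelial genes was without overlap. Over all genes tested, the groups did not overlap in 1.78% on the higher and 2.2% on the lower side.

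The effect of cocaine at ZT23 was set beside that in WT. There, too, 0 of 13547 genes had an adjusted p under 0.05, and 172 (1.27%) had an unadjusted p under 0.05, with a median absolute difference of 0.081 against 0.14 in iMSN-D2RKO. The groups did not overlap in 2.23% of WT genes on the higher and 1.97% on the lower side, and each WT group also holds 1 set-apart library. The 4 expressed genes with the smallest p for the difference of effects were Ahsa2, Haus2, Zfp46 and Hsf4. Ahsa2 in WT had 6.20, 4.64 and 5.397 FPKM after saline and 7.26, 9.17 and 8.33 after cocaine, opposite to its values in iMSN-D2RKO, and the effects differed by -1.02 ± 0.27 (adjusted p = 0.9995 in limma). Ahsa2 overlaps Usp34 on the other strand, and Haus2 overlaps Lrrc57. Zfp46, a zinc-finger gene, had 12.5, 8.72 and 8.77 after saline and 16.2, 15.1 and 13.1 after cocaine in iMSN-D2RKO, and 12.7, 13.2 and 12.2 after saline and 10.8, 9.56 and 7.60 after cocaine in WT. In both genes the groups of each genotype did not overlap and stood in opposite order.

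Haus2, a subunit of the augmin complex of the spindle, had 6.24, 4.43 and 4.56 FPKM after saline and 5.85, 7.77 and 7.29 after cocaine in iMSN-D2RKO, and 9.13, 6.39 and 5.73 after saline and 4.48, 3.21 and 4.82 after cocaine in WT, a difference of effects of 1.03 ± 0.29. Hsf4 in WT had 5.32, 7.59 and 8.47 after saline and 6.95, 9.57 and 6.94 after cocaine, and its effects differed by -1.08 ± 0.35. The WT groups of Hsf4 overlapped and those of Haus2 did not.

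Between ZT23 and ZT19 in iMSN-D2RKO, 0 of 13857 genes passed adjustment for a difference of effects, and 1007 (7.27%) had an unadjusted p under 0.05. That number was 241 with the library score as covariate and 199 without the set-apart libraries. At ZT19 saline replicates 1 and 3 are set apart and no cocaine library is, and 2307 of 13609 genes (17%) had an unadjusted p under 0.05 with none passing adjustment. The groups of ZT19 did not overlap in 6.19% of genes on the higher and 8.97% on the lower side. Galnt9, a glycosyltransferase, had 8.03, 19.9 and 5.91 FPKM after saline and 3.67, 6.39 and 8.32 after cocaine at ZT23, and 6.87, 10.2 and 5.86 after saline and 16.3, 19.2 and 29.4 after cocaine at ZT19, a difference of effects of -2.05 ± 0.60. Fam210b at ZT19 had 14.4, 11.6 and 14.4 after saline and 10.7, 10.96 and 12.3 after cocaine, and the effects differed by 0.80 ± 0.22 (adjusted p = 0.457 in limma). The other 2 genes of this kind were Hsf4, with -1.23 ± 0.35, and Ncstn, a subunit of gamma-secretase whose gene overlaps Copa on the other strand, with 0.44 ± 0.14.

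The largest differences among abundant entries belonged to microRNA entries and had no replicate support. Mirlet7d, a microRNA precursor entry, was listed at 692 FPKM in saline replicate 2 and at 0 in the other 5 libraries. An entry joining Mir719 and Nupl1 had 816 FPKM in saline replicate 3 and 3640 in cocaine replicate 1, against 13.3 to 21.1 in the other 4. Mir703 had 2156, 198 and 0 after saline and 0, 1840 and 1527 after cocaine. The library preparation selected poly(A) RNA, in which such precursors are not measured as mature microRNAs. Scn4b, a sodium channel subunit of MSNs, was the abundant entry of normal length with the largest positive value, at 221, 302 and 55.1 after saline and 128, 378 and 265 after cocaine (0.59 ± 0.52), and its groups overlapped.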

How the data were processed

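Total RNA from ventral striatum punches was made into stranded poly(A) libraries. The authors aligned single-end reads to mm10 with TopHat and Bowtie2 and deposited gene FPKM made with Cufflinks, Cuffmerge, Cuffquant and Cuffnorm. The labels also name CASAVA 1.8.2. The annotation release, the Cuffnorm option and read numbers are not given in the sources used here. A precision from depth was therefore not computed. Each of the 6 libraries of ZT3 fills a pair of identical columns and was counted once, which left 66. All columns were mapped to a sample. Groups hold 3 libraries, and the labels do not tie a library to an animal.

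The 22 group means were fitted on log2(FPKM + 1) over the 66 libraries with limma 3.58.1 in R 4.3.3 (trended empirical Bayes, Benjamini-Hochberg adjustment), over genes reaching 1 FPKM in any compared library. Fold changes on this scale understate the change of low genes. The fit was tested on simulated data with independent noise for each gene and library. Those data lack the shared axis that sets libraries apart here, so that test does not cover it. Set-apart libraries were read from the first principal axis of log2 values centred within groups. Positions are those of GENCODE M21 (GRCm38, which is mm10), and promoters those of RefSeq on GRCm38.p6. Tables and figures used Python 3.11.15, pandas 2.3.3 and matplotlib 3.10.9.

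Genes named: the 12 smallest p in each direction among genes of at least 1 FPKM whose groups do not overlap, the 4 smallest p among genes of at least 5 FPKM in each difference of effects, clock and PPAR genes, the 2 smallest p of each of 42 lists, and the 3 largest differences in each direction at 100 FPKM or more, the last 3 kinds in part by range. Further list members, among them Tcp1, Cct5, Hspa5, Hspa8, Arc, Fos and Tac2, were named outside these rules with their values known. Members and lists were chosen with earlier results of these data known. ERSE and heat shock motifs were chosen after the list values were seen. Alternatives covered pseudocounts of 0.1 and 0.5, filters, scaling, quantile normalization, array weights, a library score, a replicate block and leaving out libraries.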

Additional observations from a re-analysis of the deposited data

Results flagged for a closer look

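In 6 cases among the named genes the 3 cocaine libraries lay all on one side of the 3 saline libraries in iMSN-D2RKO at ZT23 and all on the other side in the group compared with it. Over all genes tested in both comparisons, such an opposite order was found in 34 of 13353 (0.255%) against WT and in 17 of 13368 (0.127%) against ZT19. The same order was found in 20 (0.15%) and 53 (0.396%). Many named genes were chosen for groups that do not overlap or for a small p, so these shares are no yardstick for the 6. None of the 6 passed adjustment in limma's test of the difference of effects. Against WT at ZT23, the log2 differences of effects were 0.96 for Zfp46 (adjusted p = 0.9995), -1.02 for Ahsa2 (adjusted p = 0.9995) and 0.60 for Kcnab1 (adjusted p = 0.9995). Kcnab1 in WT had 125, 132 and 134 FPKM after saline and 118, 98.3 and 123 after cocaine. Against iMSN-D2RKO at ZT19, they were 0.78 for Zfp873 (adjusted p = 0.457), 1.76 for Tmem181b-ps (adjusted p = 0.457) and 0.35 for Sirt2, a deacetylase abundant in oligodendrocytes (adjusted p = 0.457). Zfp873 at ZT19 had 4.60, 2.85 and 2.72 FPKM after saline and 2.64, 2.18 and 2.63 after cocaine. Of the ZT19 libraries, saline replicates 1 and 3 are set apart, and their part in these values was not tested. Groups of 3 samples were not searched for single outlying libraries.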

How the results depend on the processing

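The count of 0 genes was also obtained for all 3 tests (cocaine at ZT23, and its difference from WT and from ZT19) at an adjusted p under 0.1, with both pseudocounts, both filters, both scalings, only the compared libraries, the library score and without the set-apart libraries, and leaving out each library in turn gave 0 to 0 (smallest adjusted p 0.0743, without saline replicate 1). The exception was array weights, with 2862 genes (1356 higher, 1506 lower) for cocaine at ZT23, 4547 for the difference from WT and 9749 for that from ZT19. There the estimation of weights stopped before converging, with weights between 0.089 and 185 in the 6 libraries. Under these weights Nfil3 (0.22) and Gpr52 (-0.32) changed sign. Same-numbered saline and cocaine libraries correlated at -0.40, 0.60 and -0.67 in their deviations from the group means. The 2 set-apart libraries, saline replicate 3 and cocaine replicate 1, correlated at 0.85. These deviations follow the set-apart libraries, so they cannot show whether the numbers pair the samples. With a replicate block, 0 genes passed in 60 and in 6 libraries, and in the 3 tests of 60 libraries 151, 150 and 448 had an unadjusted p under 0.05, against 234, 231 and 1007 without the block (34 with 6 libraries). That count for cocaine at ZT23 also ran from 54 (only the 6 libraries) and 118 (mean FPKM of at least 5) to 363 (without set-apart libraries), 475 (no filter), 523 and 639 (library score, in 6 libraries, a choice made after seeing the data, and in 66), 679 without saline replicate 1, 927 without saline replicate 3 and 4576 (array weights). For the difference from WT it was 111 (mean FPKM of at least 5), 482 (no filter), 582 (library score), 418 without iMSN-D2RKO saline replicate 1, 395 without replicate 3, 361 without WT cocaine replicate 3 and 5972 (array weights). For that from ZT19 it was 181 (only compared libraries), 241 (library score), 199 (without set-apart libraries) and 10025 (array weights). Without ZT23 cocaine replicates 1, 2 and 3 it was 155, 1910 and 1903, without ZT23 saline replicates 2 and 3 it was 168 and 4570, and without ZT19 saline replicates 1, 2 and 3 it was 275, 4484 and 304.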
